A study of Mus musculus with 6 samples.

Results

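Interferon-stimulated genes are the genes that cells switch on when an interferon binds its receptor, and 44 of them were followed here in the mouse colon epithelial fraction. The members are named genes of this response, matched by symbol to the authors' deposited comparison, where all 44 were found among 46078 gene rows of the count table. They fall into the Mx GTPases (2 genes), oligoadenylate synthetases (6), IFIT and viperin effectors (5), ISG15 conjugation (4), sensors of RNA and other nucleic acids (5), transcription factors (4), guanylate-binding proteins (6), the Ifi200 family (2), the PARP9 complex (3) and other effectors (7). The question was which of these branches were higher and which were lower in Lingo2 mutant than in wild type mice.

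Type I interferons signal through IFNAR and type III interferons, the interferon lambdas, through IFNLR, which is mainly found on epithelial cells such as those of the gut. Both activate JAK1 and TYK2, and a complex that holds STAT2 and IRF9 then binds the interferon-stimulated response element (ISRE) in promoters of antiviral genes such as Mx1, Oas2 and Isg15. Interferon gamma, made mainly by T cells and natural killer cells, acts through factors that bind the gamma-activated site (GAS), and guanylate-binding proteins are among its best known targets. The epithelium of the gut is known to keep a low level of interferon-stimulated genes on in the absence of infection.

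The samples were 6 RNA-seq libraries of total RNA: 3 of wild type mice and 3 of Lingo2 mutant mice, altered in a gene that encodes a leucine-rich repeat transmembrane protein. All mice were 2 months old and were naive, with no treatment named. In both groups, colon cells were washed off the tissue with EDTA and DTT, a wash that also releases the lymphocytes lying among epithelial cells. The sources used here do not give how the mutant allele was made or whether each library came from its own mouse. The p-values therefore measure only library-to-library spread, part of which may be technical. In RNA from a mixed fraction, fewer cells of a type and less RNA per cell cannot be told apart.

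Wild type libraries held 25010618 to 28029583 reads assigned to genes, and mutant libraries held 7060769 to 13047682. Members took 46371 to 57247 of these reads per wild type library and 16660 to 29563 per mutant library. Mitochondrial genes held 45.3% to 48.4% of gene reads per wild type library and 35.7% to 39.8% per mutant library. Depth and mitochondrial share were thus both separated between genotypes. Their part in the differences below cannot be told apart from that of genotype. Lingo2 itself had 0, 7 and 0 wild type reads and 1, 1 and 0 mutant reads, too few to check the genotype labels. The epithelial markers Epcam, Vil1 and Krt8 were present in every library, and 0 of 13 epithelial markers passed between genotypes with edgeR or DESeq2, with 1 lower at an unadjusted edgeR p under 0.05. Levels below are CPM, the usual depth-scaled read counts, with library sizes adjusted by trimmed-mean (TMM) factors, and differences are log2 fold changes of mutant over wild type from edgeR's quasi-likelihood test, each with its standard error. Values of single libraries are given in the order of replicates 1 to 3 of each genotype.

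Promoters show which members carry the sequence element that interferon signalling uses. Of the 44 members, 31 had at least 1 promoter in the RefSeq table of GRCm38.p6. Mx1, Mx2, Oas2 and Ifi204 were among those without one, so their promoters were not searched. The 250 bases before each start were searched on both strands for the ISRE core, spelled GAAA, any 2 bases and GAAA again, and for the GAS core, spelled TTC, any 3 bases and GAA, and overlapping matches were counted separately. The ISRE core was present in 14 of the 31 members (45.2%), against 3.46% of the 27025 genes and 2.98% of the 32851 promoters in the table. The GAS core was present in 7 of the 31 (22.6%), against 8.13% of all genes and 7.02% of all promoters. In Bst2, which encodes the virus-tethering protein tetherin, an ISRE match and a GAS match overlapped. By branch, the ISRE core was found in 3 of 5 oligoadenylate synthetases, 3 of 5 IFIT and viperin genes, 3 of 3 guanylate-binding proteins, 1 of 1 Ifi200 gene and 0 of 3 sensors. Such a match describes letters in a window and does not show that a factor binds there.

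Stretches around these matches follow for Isg15, which has 3 overlapping matches, and for the members with a match in the branches that the question names. Each reads 5′ to 3′ along the gene's own strand, from RefSeq GRCm38.p6, and capitals mark the ISRE core, which reads TTTC, 2 bases and TTTC where it lies on the other strand. Isg15 (minus strand, chr4:156200835-156200936), Oas1a (minus, chr5:120907526-120907552), Oas1g (minus, chr5:120887614-120887671) and Oas3 (minus, chr5:120777685-120777774) carry it in one orientation. Gbp2 (plus strand, chr3:142620594-142620623), Gbp3 (plus, chr3:142559959-142560015) and Gbp7 (plus, chr3:142530243-142530332) carry it in the other, and Ifi208 (plus, chr1:173673567-173673627) carries it as the Oas genes do.
Isg15: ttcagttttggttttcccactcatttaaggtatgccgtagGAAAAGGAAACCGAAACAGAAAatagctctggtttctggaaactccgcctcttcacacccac
Oas1a: ttctcggGAAATGGAAACTGAAAatct
Oas1g: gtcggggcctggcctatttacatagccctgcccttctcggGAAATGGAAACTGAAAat
Oas3: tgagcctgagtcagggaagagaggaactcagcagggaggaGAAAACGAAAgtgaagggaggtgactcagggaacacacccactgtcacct
Gbp2: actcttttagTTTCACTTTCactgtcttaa
Gbp3: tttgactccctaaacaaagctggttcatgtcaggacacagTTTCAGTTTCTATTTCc
Gbp7: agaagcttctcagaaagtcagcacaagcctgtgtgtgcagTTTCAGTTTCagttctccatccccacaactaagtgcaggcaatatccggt
Ifi208: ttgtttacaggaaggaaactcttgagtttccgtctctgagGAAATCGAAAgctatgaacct
Oas1a and Oas1g have the same capitals, 2 overlapping matches that end 5 and 3 bases before their starts. In Gbp2 the match lies 59 to 50 bases before the RefSeq start but past the gene start of the GENCODE annotation, at base 142620602. The matches of Oas1a also overlap an annotated gene. In Ifi208 the match lies 58 to 49 bases before the start. Among the members searched, some with a positive log2 fold change, such as Oas1g, and some with a negative one, such as Gbp2 and Ifi208, hold the core.

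All 44 members passed the filter on low counts. Mx1 and Oas2 rose in the mutant libraries and Ifi208 fell, at an edgeR adjusted p threshold of 0.05. Of all 16757 genes tested, 1.04% passed as higher, 1.52% as lower and 2.57% in either direction. At an unadjusted p under that threshold, 9 members were higher and 6 lower, beside 18.6% of all genes in either direction. These shares of all genes also stand beside the edgeR counts given for single branches, pathway lists and marker lists. Without a filter on low counts 6 members passed as higher and 5 as lower, beside 1.95% and 3.23% of the genes then tested and 5.18% in either direction. The median log2 fold change was 0.07 over the members and 0.000983 over all genes tested, with 27 members positive and 17 negative. Without mutant replicate 3 the median over the members was -0.021. Every mutant library lay above every wild type library in 8 members and below it in 5, beside 12.3% and 11.8% of all genes. The summed level of the 44 members ran from 2023 to 2135 CPM in wild type libraries and from 2038 to 2224 CPM in the mutants, so the groups overlapped in the total. DESeq2 called the same 3 members and also Gbp2 as lower, and limma voom called Mx1 and Oas2. With mitochondrial genes left out of library sizes, edgeR called Mx1, Oas2 and Ifi208 again.

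**Figure D1:**
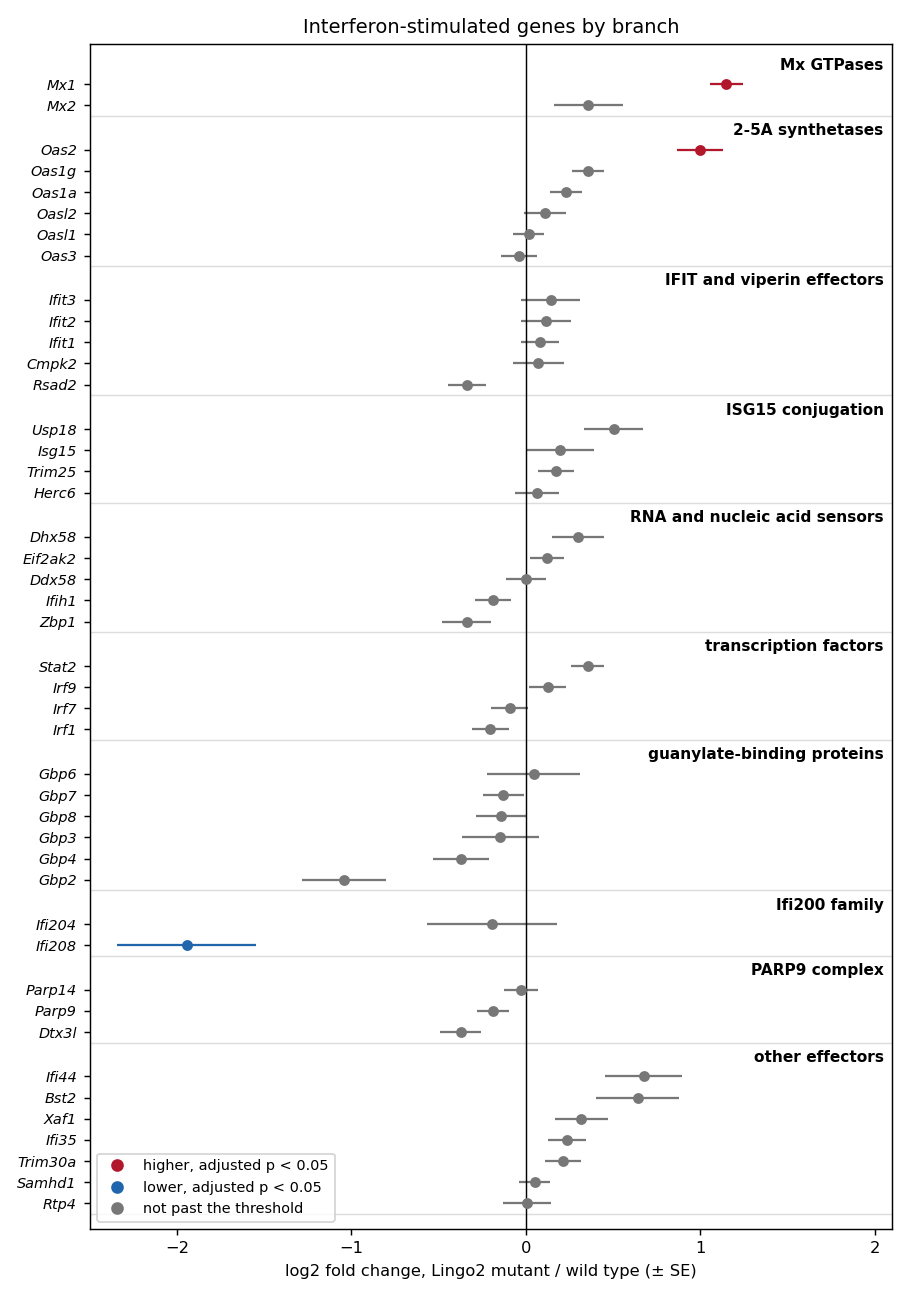
Log2 fold change of mutant over wild type (x axis, log2 scale, bars ± SE) for the 44 interferon-stimulated genes (y axis), grouped by branch. Mx1 at 1.15 and Oas2 at 1.00 are past the threshold as higher and Ifi208 at -1.94 as lower, and Gbp2 at -1.04 is not past it.

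Mx proteins are GTPases that block viruses after entry, Mx1 in the nucleus of mouse cells and Mx2 in the cytoplasm. Mx1 (ENSMUSG00000000386, chromosome 16, 97447035 to 97462907, on the minus strand) had 21.8, 21.1 and 22.0 CPM (wild type) and 44.5, 52.7 and 47.2 CPM (mutant). The gap between the groups was wider than the spread within either of them. The means were 21.7 ± 0.464 CPM for wild type and 48.2 ± 4.17 CPM for mutant libraries (SD, n = 3 each), a log2 fold change of 1.15 ± 0.10 (edgeR adjusted p = 0.000129). Mx1 was called higher in every alternative fit tried, with log2 fold changes of 1.07 to 1.20 when each library was left out. Mx2 lies next to it on the same chromosome (97535308 to 97560900) and had 4.97, 7.76 and 5.66 CPM (wild type) and 9.24, 6.73 and 7.40 CPM (mutant). The second wild type library was above 2 of the mutant libraries, so the groups overlapped. Its log2 fold change was 0.36 ± 0.20 (edgeR adjusted p = 0.363). GENCODE lists Mx2 as a polymorphic pseudogene, and 2.01% of its 75-base exon windows also occur in Mx1.

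**Figure D2:**
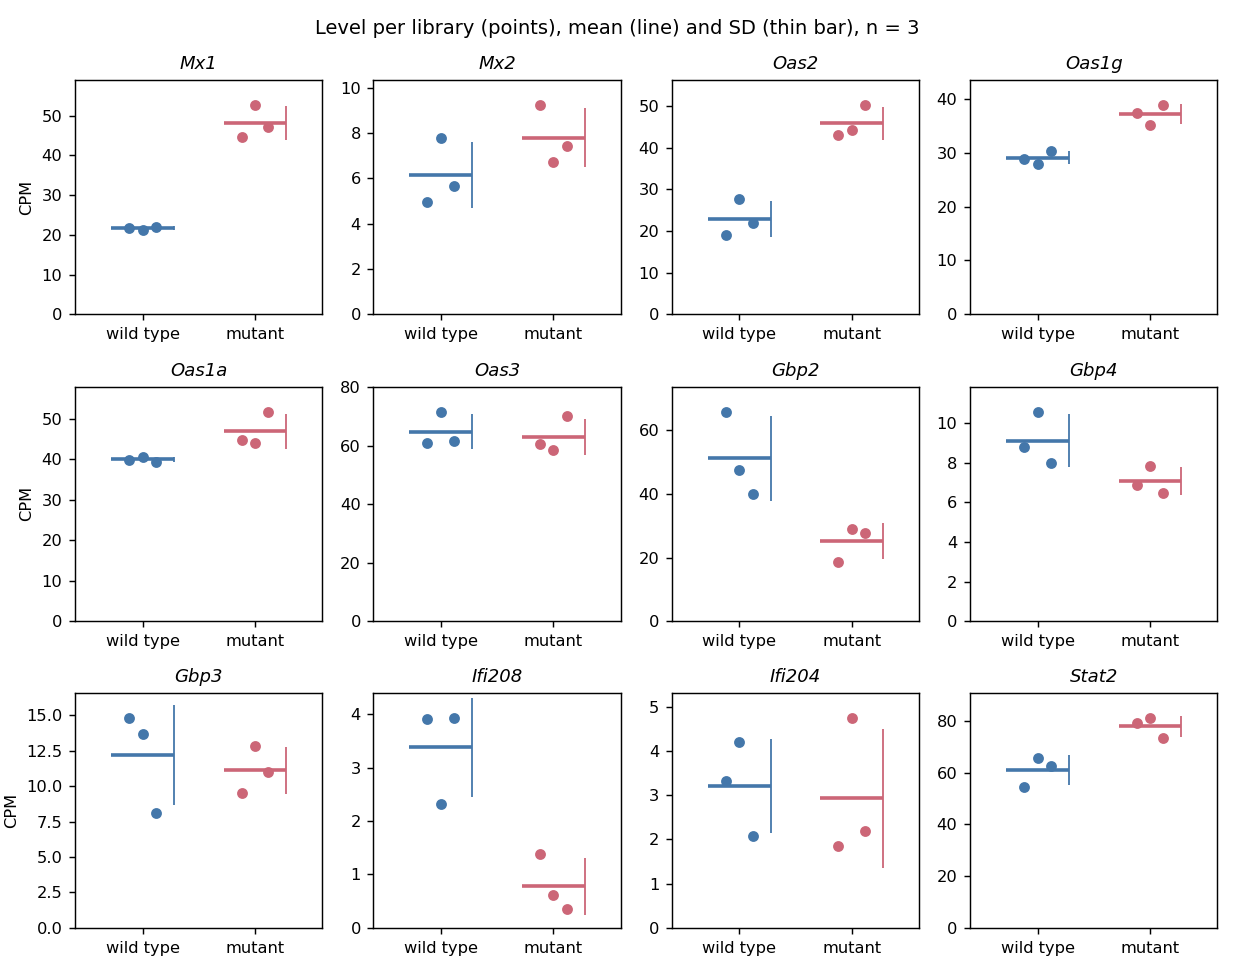
CPM in each library (y axis, linear scale from 0, points) for 12 members in wild type and mutant (x axis), with the mean as a line and the SD of the 3 libraries as a thin bar. Mx1 and Oas2 are separated with mutant libraries above, Gbp2, Gbp4 and Ifi208 with mutant libraries below, and Mx2, Oas3, Gbp3 and Ifi204 overlap.

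Oligoadenylate synthetases make the short adenylate chains that activate RNase L, which cuts viral and cellular RNA. Oas2 (ENSMUSG00000032690, chromosome 5, 120730333 to 120749853, on the minus strand) had 19.0, 27.6 and 22.0 CPM (wild type) and 43.1, 44.2 and 50.3 CPM (mutant). The lowest mutant library was well above the highest wild type library, the second. The means were 22.9 ± 4.37 CPM for wild type and 45.9 ± 3.89 CPM for mutant libraries (SD, n = 3 each), a log2 fold change of 1.00 ± 0.13 (edgeR adjusted p = 0.00233). Oas2 also stayed past the threshold in every alternative fit tried, and leaving out single libraries gave log2 fold changes of 0.88 to 1.16. No 75-base window of Oas2 occurs in another gene.

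The other 5 synthetases did not pass the test. Oas1g, a synthetase that makes the adenylate chains like Oas2, had 28.8, 27.97 and 30.4 CPM (wild type) and 37.3, 35.1 and 38.9 CPM (mutant). All mutant libraries were above all wild type libraries, at a log2 fold change of 0.35 ± 0.09 (edgeR adjusted p = 0.0595). Oas1a, its close paralog, had 39.97, 40.7 and 39.4 CPM (wild type) and 44.8, 44.1 and 51.8 CPM (mutant) (0.23 ± 0.09, edgeR adjusted p = 0.212). Its groups were separated too, but 47.6% of Oas1a windows and 36.9% of Oas1g windows occur in the other gene, so reads may be split between this pair. Oas3, the neighbour of Oas2 on chromosome 5, had 61.0, 71.6 and 61.6 CPM (wild type) and 60.5, 58.6 and 70.0 CPM (mutant). Its groups overlapped, at a log2 fold change of -0.04 ± 0.10 (edgeR adjusted p = 0.867). Oasl1 and Oasl2 are synthetase-like proteins that lie in another cluster on chromosome 5. Oasl1 had 46.1, 50.3 and 50.8 CPM (wild type) and 51.6, 50.2 and 47.0 CPM (mutant), with a log2 fold change of 0.02 ± 0.09 (edgeR adjusted p = 0.947). Oasl2 had 88.7, 117 and 103 CPM (wild type) and 100.3, 105 and 126 CPM (mutant), with a log2 fold change of 0.11 ± 0.12 (edgeR adjusted p = 0.674). Both overlapped between groups.

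Further Oas genes that are not among the 44 members lie in the cluster of Oas2 on chromosome 5. Oas1b, with 5.24, 7.16 and 5.49 CPM (wild type) and 9.65, 9.47 and 9.37 CPM (mutant), had every mutant library above (0.67 ± 0.16, edgeR adjusted p = 0.0518), and the DESeq2 adjusted p was 0.0409. Ifit1bl2, an IFIT gene of chromosome 19, had 65.6, 45.9 and 52.0 CPM (wild type) and 39.6, 40.3 and 35.5 CPM (mutant) (-0.50 ± 0.13, edgeR adjusted p = 0.0606), and there every mutant library was below. Of the 13 other OAS, IFIT and IFITM genes tested, 0 passed with edgeR, and at an unadjusted p under 0.05 there were 2 higher and 3 lower. DESeq2 called 1 higher, Oas1b, and 1 lower, Ifit1bl2. Oas1h, of the same cluster, had 2.02, 2.16 and 2.47 CPM (wild type) and 4.21, 3.61 and 3.47 CPM (mutant), with every mutant library above (0.77 ± 0.21, edgeR adjusted p = 0.0767, DESeq2 adjusted p = 0.133). Oas1c, between Oas3 and Oas1b on the chromosome, had a log2 fold change of -0.11 ± 0.26, and its groups overlapped. Oas1h and Oas1c were picked for their places in the plot of family genes, after their values were seen.

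**Figure D3:**
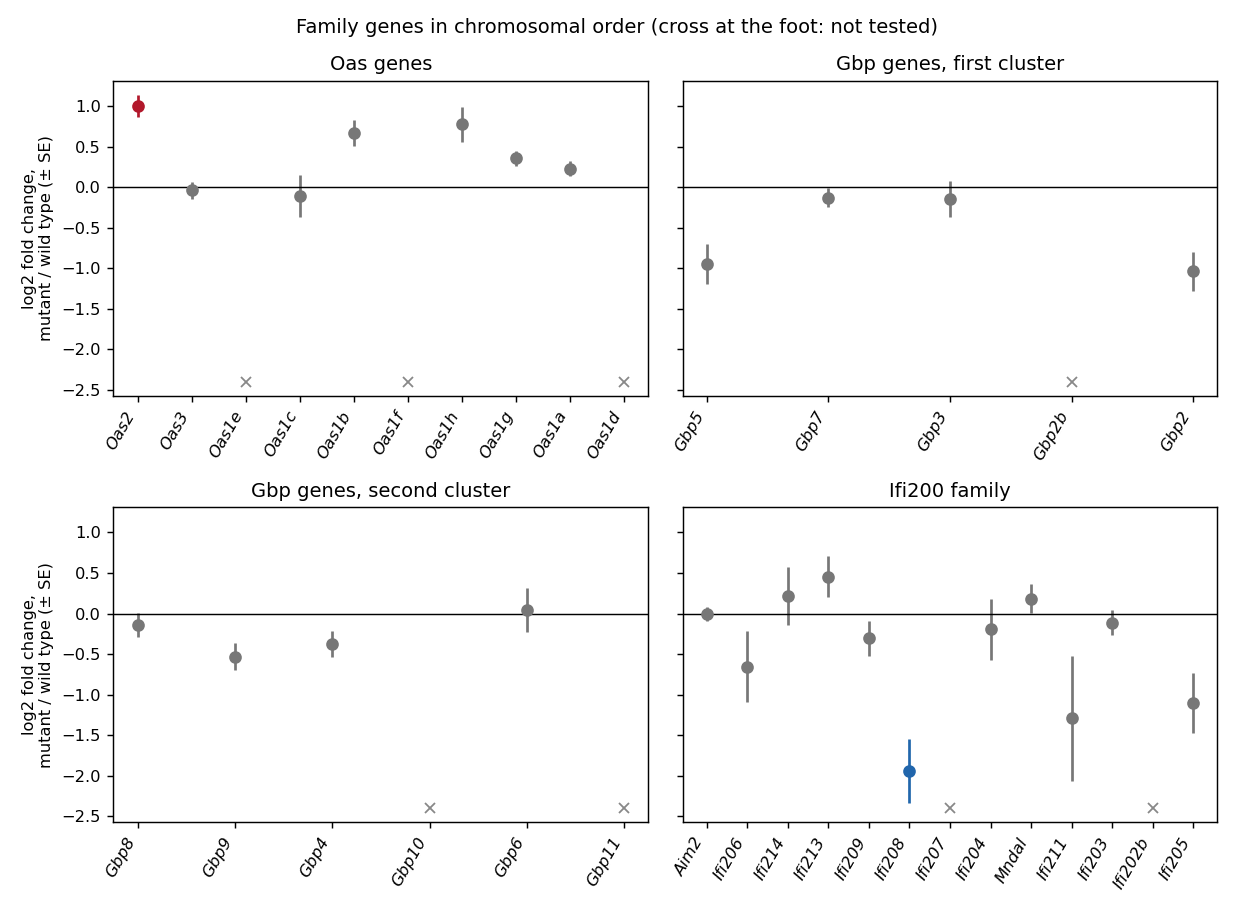
Log2 fold change of mutant over wild type (y axis, log2 scale, bars ± SE) for family genes in chromosomal order (x axis, evenly spaced) in the Oas cluster, both Gbp clusters and the Ifi200 cluster. Red marks a gene past the threshold as higher (Oas2), blue as lower (Ifi208), grey the rest, and crosses mark genes that were too low to test.

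Guanylate-binding proteins are large GTPases that coat the vacuoles of intracellular pathogens and bacteria in the cytosol, and 0 of 6 members passed the edgeR test, with 2 lower at an unadjusted p under 0.05. Gbp2 (ENSMUSG00000028270, chromosome 3, 142620602 to 142638008, on the plus strand) had 65.9, 47.5 and 40.1 CPM (wild type) and 18.6, 28.9 and 27.9 CPM (mutant). The first mutant library was the lowest and the first wild type library the highest, and the groups did not overlap. The means were 51.2 ± 13.3 CPM for wild type and 25.1 ± 5.67 CPM for mutant libraries (SD, n = 3 each), with a log2 fold change of -1.04 ± 0.24 (edgeR adjusted p = 0.0823). DESeq2 gave Gbp2 an adjusted p of 3.36e-05, and edgeR without the wild type replicate 3, the lowest wild type library, gave 0.0243. With all libraries, edgeR gave an adjusted p of 0.0280 without robust dispersions and 3.06e-12 without a filter on low counts. The call of Gbp2 thus depends on the test, on its settings and on that library. DESeq2 called 4.25% of the genes it tested, 1.62% as higher and 2.63% as lower.

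The other 5 guanylate-binding members were nearer to no difference. Gbp4 had 8.78, 10.6 and 8.01 CPM (wild type) and 6.89, 7.85 and 6.48 CPM (mutant). Its mutant libraries were all below the wild type ones (-0.37 ± 0.16, edgeR adjusted p = 0.234). Gbp3 had 14.8, 13.6 and 8.14 CPM (wild type) and 9.51, 12.8 and 10.99 CPM (mutant), with the lowest value in the third wild type library and a log2 fold change of -0.15 ± 0.22 (edgeR adjusted p = 0.768). Gbp7, which lies beside Gbp3 on chromosome 3, had 27.5, 26.1 and 21.2 CPM (wild type) and 24.1, 21.2 and 22.9 CPM (mutant) (-0.13 ± 0.12, edgeR adjusted p = 0.585). Its groups overlapped, as did those of Gbp3. Gbp8 had 9.15, 10.1 and 8.77 CPM (wild type) and 8.20, 9.60 and 7.75 CPM (mutant) (-0.14 ± 0.14, edgeR adjusted p = 0.632). Gbp6 had 3.54, 4.03 and 2.04 CPM (wild type) and 2.96, 3.49 and 3.59 CPM (mutant) (0.04 ± 0.27, edgeR adjusted p = 0.95). Gbp8 and Gbp6 overlapped as well, and both are uncertain in the counting. Exons of Gbp4 and Gbp8 share 121 bases of the annotation with each other or with Gbp9, and 67.3% of Gbp6 windows occur in another gene, mostly the predicted gene Gm43302.

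Over these 6 members the median log2 fold change was -0.14, with 5 of 6 negative. The 10 tested genes of the same GTPase families outside the members were all negative, with a median of -0.41 beside 0.000983 for all genes tested, and 1 of the 10 passed with edgeR (2 with DESeq2). The gene that passed with edgeR was Ifi47, an immunity-related GTPase induced by interferon gamma. It had 38.6, 40.01 and 37.3 CPM (wild type) and 22.8, 29.5 and 26.7 CPM (mutant). Every mutant library was below, and Ifi47 fell by a log2 value of 0.56 ± 0.11 (edgeR adjusted p = 0.0169). The adjusted p was 0.056 when the second wild type library was left out, 0.053 without mutant replicate 1 and 0.0644 without mutant replicate 3. DESeq2 called Ifi47 and also Gbp5, a guanylate-binding protein gene beside Gbp7 on chromosome 3. Gbp5 had every mutant library below (-0.95 ± 0.25, edgeR adjusted p = 0.0657). It was named after its value was seen.

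Many proteins of the Ifi200 family bind nucleic acids through HIN domains. Of the Ifi200 members, Ifi208 fell in the mutant libraries. Ifi208 (ENSMUSG00000066677, chromosome 1, 173673675 to 173698395, on the plus strand) had 85, 62 and 92 reads (wild type) and 20, 5 and 3 reads (mutant). In CPM these were 3.91, 2.31 and 3.92 CPM (wild type) and 1.38, 0.623 and 0.347 CPM (mutant). Every mutant library was below every wild type library, and mutant replicates 2 and 3 rest on a handful of reads. The means were 3.38 ± 0.925 CPM for wild type and 0.783 ± 0.534 CPM for mutant libraries (SD, n = 3 each), with a log2 fold change of -1.94 ± 0.40 (edgeR adjusted p = 0.0271). The call was lost with limma voom (adjusted p = 0.0507) and on leaving out the first wild type library (0.072) or the second (0.111) or last (0.0925) mutant library, while the log2 fold change stayed between -2.80 and -1.64.

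Ifi204, the second Ifi200 member, encodes a nuclear DNA-binding protein. It had 3.31, 4.21 and 2.09 CPM (wild type) and 1.86, 4.74 and 2.20 CPM (mutant). The second mutant library was the highest of all 6, and the groups overlapped (-0.19 ± 0.37, edgeR adjusted p = 0.821). Of 9 other family genes tested, 0 passed with edgeR, 0 with DESeq2 and 1 was lower at an unadjusted p under 0.05. That gene, Ifi205, had 2.25, 1.603 and 1.15 CPM (wild type) and 0.758, 0.997 and 0.578 CPM (mutant) (-1.10 ± 0.37, edgeR adjusted p = 0.139). Ifi213 was on the positive side, with 2.07, 3.06 and 2.77 CPM (wild type) and 4.21, 3.99 and 2.54 CPM (mutant) (0.45 ± 0.25, edgeR adjusted p = 0.354). Aim2, the inflammasome sensor of cytosolic DNA, had 48.2, 50.7 and 48.0 CPM (wild type) and 50.8, 50.2 and 45.0 CPM (mutant), with overlapping groups. It was named after its value was seen. Windows shared with other family genes made up 11.8% of Ifi208 and 13.2% of Ifi204.

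IFIT proteins bind foreign RNA ends and stop its translation, and viperin, made from Rsad2, yields a nucleotide that ends viral RNA chains. None of these 5 members passed with edgeR or DESeq2, 1 was lower at an unadjusted edgeR p under 0.05, and their median log2 fold change was 0.08. Rsad2 had 51.3, 61.8 and 66.6 CPM (wild type) and 51.4, 46.5 and 44.1 CPM (mutant). The groups met at the first library of each genotype, and the log2 fold change was -0.34 ± 0.11 (edgeR adjusted p = 0.129, or 0.0496 without wild type replicate 1). Cmpk2, a nucleotide kinase that neighbours Rsad2 on chromosome 12, did not share its sign with all libraries in (0.07 ± 0.14, edgeR adjusted p = 0.83). Ifit2 had 14.4, 20.4 and 15.8 CPM (wild type) and 17.2, 17.1 and 20.6 CPM (mutant), a log2 fold change of 0.11 ± 0.14 (edgeR adjusted p = 0.712). Ifit3 had 7.18, 10.8 and 7.79 CPM (wild type) and 9.86, 8.97 and 9.60 CPM (mutant), a log2 fold change of 0.14 ± 0.17 (edgeR adjusted p = 0.697). Both overlapped between groups, and 41.1% of Ifit3 windows occur in Ifit3b. Ifit1, the highest IFIT member per length, had a log2 fold change of 0.08 ± 0.11.

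ISG15 is a ubiquitin-like protein attached to other proteins, and USP18 removes it and also blocks signalling at the type I receptor. None of these 4 members passed with edgeR or DESeq2, and 1 was higher at an unadjusted edgeR p under 0.05. All 4 log2 fold changes were positive (median 0.19), though Isg15 and Herc6 turned negative when single libraries were left out. Usp18 had 8.74, 11.97 and 8.99 CPM (wild type) and 13.0, 12.1 and 17.2 CPM (mutant). The mutant libraries were all above, the second by a narrow margin over the second wild type library (0.50 ± 0.17, edgeR adjusted p = 0.139). Isg15 had 13.2, 15.9 and 15.1 CPM (wild type) and 15.2, 12.7 and 23.0 CPM (mutant) (0.20 ± 0.19, edgeR adjusted p = 0.617). Its positive value rests on the third mutant library: without it the log2 fold change was -0.08. Trim25, the ligase that tags RIG-I, had 186, 157 and 176 CPM (wild type) and 182, 206 and 197 CPM (mutant) (0.17 ± 0.10). Herc6, the main mouse ISG15 ligase, had a log2 fold change of 0.06 ± 0.13.

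Sensors of RNA and other nucleic acids start the response that interferon then amplifies. Of MDA5 (Ifih1), RIG-I (Ddx58), LGP2 (Dhx58), ZBP1 and PKR (Eif2ak2), none passed with edgeR or DESeq2, 1 was lower at an unadjusted edgeR p under 0.05, and the log2 fold changes ran from -0.34 to 0.30. Zbp1, which triggers necroptosis on Z-form nucleic acids, had 46.5, 51.1 and 41.6 CPM (wild type) and 28.5, 42.4 and 39.9 CPM (mutant) (-0.34 ± 0.14, edgeR adjusted p = 0.234). The first mutant library was the lowest, and the second wild type library the highest. Dhx58 had 9.38, 12.4 and 11.4 CPM (wild type) and 14.5, 11.3 and 14.8 CPM (mutant) (0.30 ± 0.15, edgeR adjusted p = 0.304). Ifih1 had 133, 117 and 120.3 CPM (wild type) and 97.3, 109 and 119.7 CPM (mutant) (-0.19 ± 0.10, edgeR adjusted p = 0.351). All 3 overlapped between groups. Ddx58 lies 3.25 Mb from Lingo2 on chromosome 4 and had 30.2, 38.9 and 33.8 CPM (wild type) and 36.4, 31.0 and 35.3 CPM (mutant), with overlapping groups.

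Among the transcription factors, STAT2 and IRF9 are partners in the complex that binds the ISRE, IRF7 drives interferon alpha genes, and IRF1 acts downstream of interferon gamma. None of the 4 passed with edgeR or DESeq2, and 1 was higher at an unadjusted edgeR p under 0.05. That gene, Stat2, had 54.6, 65.9 and 62.6 CPM (wild type) and 79.4, 81.0 and 73.5 CPM (mutant). Every mutant library was above every wild type library, at a log2 fold change of 0.35 ± 0.10 (edgeR adjusted p = 0.074). Irf9 had 41.4, 46.8 and 38.5 CPM (wild type) and 50.1, 41.0 and 46.7 CPM (mutant) (0.12 ± 0.11, edgeR adjusted p = 0.568). Irf1 had 175, 142 and 150.5 CPM (wild type) and 136, 146 and 124 CPM (mutant) (-0.20 ± 0.11, edgeR adjusted p = 0.337), and the log2 fold change of Irf7 was -0.09 ± 0.11. Irf9, Irf1 and Irf7 overlapped between groups. Part of the Irf9 exons, 123 bases, also belongs to Rnf31 in the annotation.

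PARP9 and DTX3L form a complex of an ADP-ribosylation partner and a ubiquitin ligase, and PARP14 is a related ADP-ribosyltransferase. None of the 3 passed with edgeR or DESeq2, 1 was lower at an unadjusted edgeR p under 0.05, and all 3 log2 fold changes were negative (median -0.19), though Parp14 turned positive when single libraries were left out. Dtx3l had 98.4, 82.9 and 80.3 CPM (wild type) and 60.7, 63.8 and 77.5 CPM (mutant). Its mutant libraries were all below (-0.38 ± 0.11, edgeR adjusted p = 0.11). Parp9 had 77.5, 70.3 and 67.8 CPM (wild type) and 58.3, 64.2 and 66.6 CPM (mutant), also without overlap (-0.19 ± 0.09, edgeR adjusted p = 0.295). Parp9 and Dtx3l share 458 exon bases on opposite strands, and with the counting's strand setting unknown here their counts are not surely separate. Parp14 had 183, 164 and 160.0 CPM (wild type) and 155, 172 and 169.7 CPM (mutant), with overlap (-0.03 ± 0.10).

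The other 7 effectors were all positive by log2 fold change (median 0.24), though Rtp4 turned negative with upper quartile factors, without a filter, with limma voom and without single libraries, and Samhd1 without 1 library. None passed with edgeR or DESeq2, and 3 were higher at an unadjusted edgeR p under 0.05. Ifi44 had 5.38, 8.58 and 5.54 CPM (wild type) and 10.6, 7.85 and 12.7 CPM (mutant). The second wild type library was above the second mutant library, and without that wild type library the adjusted p was 0.0484, against 0.135 with all libraries (0.68 ± 0.22). Bst2 had 6.21, 8.39 and 6.18 CPM (wild type) and 7.72, 10.1 and 15.2 CPM (mutant). Its mutant libraries spread widely, the third being the highest (0.64 ± 0.24, edgeR adjusted p = 0.186). Ifi35, an interferon-induced leucine zipper protein, had 14.1, 15.9 and 15.4 CPM (wild type) and 18.5, 17.3 and 17.5 CPM (mutant), with all mutant libraries above (0.24 ± 0.11, edgeR adjusted p = 0.262). Xaf1 (0.32 ± 0.15), an antagonist of an apoptosis inhibitor, was separated by a narrow margin. Trim30a (0.21 ± 0.11), Samhd1 (0.05 ± 0.09), which degrades nucleotides needed for viral DNA synthesis, and Rtp4 (0.01 ± 0.14) overlapped.

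Levels can be compared between members only per length, here as CPM per kilobase of annotated exon. Irf7 was the highest at 68.0 (wild type) and 63.7 (mutant), followed in wild type by Irf1 at 39.2 and Trim25 at 30.1. Gbp2 was in the sixth place in wild type at 20.3 and had 9.99 in mutant libraries. Mx1 went from 5.73 to 12.7 and Oas2 from 5.14 to 10.3 CPM per kilobase. Ifi208 at 0.643 and 0.149, Ifi204 at 0.8998 and Gbp6 at 0.538 were the lowest in wild type.

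Interferons themselves were barely detected. Of 21 ligand genes, 17 had no read in any library, Ifnb1 and Ifnl2 among them, which allows up to 0.0384 CPM over the wild type group and 0.105 CPM over the mutant group. Ifnk, interferon kappa, was the only ligand tested, at 0.966, 1.45 and 1.58 CPM (wild type) and 1.86, 1.62 and 2.20 CPM (mutant) (0.50 ± 0.29, edgeR adjusted p = 0.382). Ifng, which encodes interferon gamma, had 22, 23 and 12 reads (wild type) and 1, 1 and 3 reads (mutant). Summed over each group this is 57 reads, or 0.729 CPM of unscaled gene reads, in wild type (95% exact Poisson interval 0.552 to 0.944, counting error only). The mutant group had 5 reads, or 0.174 CPM (0.0566 to 0.407). Each mutant library was below each wild type library in CPM, and the gene was under the filter on low counts, so the main fit holds no test of it.

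Receptors, signal carriers and inhibitors gave 0 calls with edgeR and with DESeq2, and at an unadjusted edgeR p under 0.05 there were 1, 2 and 1 lower and 0 higher genes. Of the 6 receptor genes the smallest p was that of Ifngr1, at 226, 150.0 and 194 CPM (wild type) and 151, 151 and 157 CPM (mutant) (-0.31 ± 0.13, edgeR adjusted p = 0.237). Ifnlr1, of the lambda receptor, had 17.8, 16.2 and 18.0 CPM (wild type) and 19.8, 21.1 and 17.5 CPM (mutant) (0.17 ± 0.11). The first wild type library set the high value of Ifngr1, and both genes overlapped between groups. Of 5 JAK and STAT genes, 0 passed, and Stat3 had 109, 98.4 and 90.2 CPM (wild type) and 82.2, 81.3 and 81.6 CPM (mutant) (-0.28 ± 0.09, edgeR adjusted p = 0.136). Jak1 had 116, 106 and 103 CPM (wild type) and 87.7, 90.1 and 96.2 CPM (mutant) (-0.24 ± 0.09, edgeR adjusted p = 0.17). Both were below wild type in every mutant library. Of the 8 inhibitors of signalling, 0 passed, with Ptpn6 at -0.27 and Ptpn11 at -0.18 having the smallest p.

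Upstream, 1 of 14 sensing genes, Ikbke, rose. By log2 fold change 7 of the 14 were positive and 7 negative (median 0.03). At an unadjusted edgeR p under 0.05, 2 were higher and 1 lower. Ikbke encodes the kinase IKK epsilon, which phosphorylates IRF3. It had 41.1, 47.5 and 50.1 CPM (wild type) and 68.8, 69.3 and 62.4 CPM (mutant). All mutant libraries were above, with a log2 fold change of 0.53 ± 0.10 (edgeR adjusted p = 0.0148), or an adjusted p of 0.0502 without mutant replicate 1 and 0.0794 without mutant replicate 2. Of 9 further interferon regulatory factors 0 passed with edgeR or DESeq2, with 2 higher and 1 lower at an unadjusted edgeR p under 0.05. Irf3, the factor that first switches on interferon beta, had 31.4, 34.5 and 33.8 CPM (wild type) and 45.3, 40.5 and 41.6 CPM (mutant). All mutant libraries of Irf3 were above (0.36 ± 0.09, edgeR adjusted p = 0.0595). Irf2, a repressor of the ISRE, had 41.5, 34.2 and 38.5 CPM (wild type) and 31.7, 32.3 and 28.6 CPM (mutant), all mutant ones below (-0.30 ± 0.10, edgeR adjusted p = 0.141).

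Downstream, 1 of 14 interferon gamma targets tested fell and 0 of 38 other interferon-induced genes passed with edgeR. At an unadjusted edgeR p under 0.05, 2 of the former were higher and 5 lower, and 3 of the latter were higher and 8 lower. The share of all genes at that threshold was 18.6% in either direction. DESeq2 called Nos2 higher and Ido1 and Cd274 lower among the former and 0 of the latter. Ido1, which breaks down tryptophan, had 12.7, 8.39 and 6.86 CPM (wild type) and 2.69, 4.49 and 2.89 CPM (mutant). Its groups did not overlap, with a log2 fold change of -1.50 ± 0.28 (edgeR adjusted p = 0.0195), or an adjusted p of 0.0896 without mutant replicate 1 and 0.116 without mutant replicate 3. Nos2, the inducible nitric oxide synthase, went the other way, with 14.2, 9.88 and 6.22 CPM (wild type) and 24.0, 20.6 and 24.1 CPM (mutant) and every mutant library above (1.19 ± 0.27, edgeR adjusted p = 0.0795, DESeq2 adjusted p = 4.86e-05). Cd274, which encodes the checkpoint ligand PD-L1, had every mutant library below (-0.71 ± 0.20, edgeR adjusted p = 0.106, DESeq2 adjusted p = 0.0202). Nos2 and Cd274 were named after their values were seen. Of the other interferon-induced genes, Trim21 had 12.8, 12.8 and 13.1 CPM (wild type) and 10.2, 9.10 and 9.25 CPM (mutant) (-0.43 ± 0.12, edgeR adjusted p = 0.0847). Lgals9, which encodes galectin-9, had 51.9, 67.6 and 61.7 CPM (wild type) and 75.1, 79.9 and 76.9 CPM (mutant) (0.35 ± 0.10, edgeR adjusted p = 0.0977). Neither overlapped between groups, and they lay on opposite sides. In all, 127 pathway genes outside the members were tested, 1 rose and 2 fell, and their median log2 fold change was -0.08.

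Markers of other cell types moved with the genotype in the same libraries, in both directions. Of 20 T cell and intraepithelial lymphocyte markers 19 fell, with a summed level of 443 to 530 CPM per wild type library, 129 to 169 CPM per mutant library and a median log2 fold change of -1.66. Cd7 (-2.08 ± 0.13), Cd3g (-1.99 ± 0.13) and Nkg7 (-1.84 ± 0.17) had the smallest p. Of 12 macrophage and dendritic cell markers tested 4 fell, among them Fcer1g (-1.41 ± 0.24), Itgax (-0.99 ± 0.20) and Tyrobp (-1.11 ± 0.24), with a sum of 94.0 to 106 CPM in wild type libraries and of 66.1 to 127 CPM in the mutants. Itgax did not pass without wild type replicate 2 or mutant replicates 2 or 3 (edgeR adjusted p = 0.0749, 0.0875 and 0.100), and Tyrobp passed only when wild type replicate 1 was the library left out (0.0458 to 0.0969 over the 6). The median of the 12 was -0.17, 4 were positive, and the complement genes of macrophages C1qa (0.32 ± 0.27), C1qb (0.31 ± 0.28) and C1qc (0.29 ± 0.26) were among these, with overlapping groups. They were named after their values were seen. Of 4 endothelial markers tested 1 rose, Vwf, which had 2.81, 2.69 and 2.60 CPM (wild type) and 5.17, 5.11 and 5.44 CPM (mutant) (0.96 ± 0.18, edgeR adjusted p = 0.0169), and the other 3 were negative. Vwf did not pass without wild type replicate 2 or without any 1 mutant library (edgeR adjusted p from 0.0522 to 0.0719). Of 10 B and plasma cell markers 7 were positive and 0 passed with edgeR, with a median of 0.21 and a sum of 159 to 205 CPM in wild type and 185 to 212 CPM in mutant libraries. Among them were Igha (0.73 ± 0.23), which DESeq2 called higher (adjusted p = 0.0388), and Jchain (0.86 ± 0.27, DESeq2 adjusted p = 0.0629), each with every mutant library above. Granulocyte markers (6 tested) and fibroblast markers (6 tested) gave 0 calls with edgeR and with DESeq2, with medians of -0.54 and -1.32, and at an unadjusted edgeR p under 0.05 there were 1 higher and 2 lower, and 0 higher and 2 lower. No marker of plasmacytoid dendritic cells (5 tested) passed, and Siglech was at or under 0.276 CPM in every library. No lymphocyte or macrophage marker was at 0 in all libraries. The part of these cells in the values of Ifi208, Gbp2, Gbp5, Ifi47, Ido1, Nos2 and Ifng was not tested.

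The third wild type library had the lowest wild type sum of the 6 guanylate-binding members, 88.3 CPM against 129.7 and 112 CPM in the others. Its lymphocyte markers summed to 530 CPM, against 443 and 523 CPM in wild type replicates 1 and 2. It also had the lowest fibroblast markers of the wild type libraries, 329 against 971 and 874 CPM. Whether these levels are linked was not tested. In mutant libraries the fibroblast markers summed to 223 to 494 CPM and 0 of 6 passed. Mean levels of the Mx, oligoadenylate synthetase and other effector branches were separated between genotypes, with mutant libraries above. Those of the Ifi200 family, the lymphocyte markers and the granulocyte markers were separated with mutant libraries below. The other member branches and cell type lists overlapped. Within the Mx branch, Mx1 was separated and Mx2 overlapped, and within the Ifi200 branch Ifi208 was separated and Ifi204 overlapped. Whether the branches differed from each other was not tested.

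**Figure D4:**
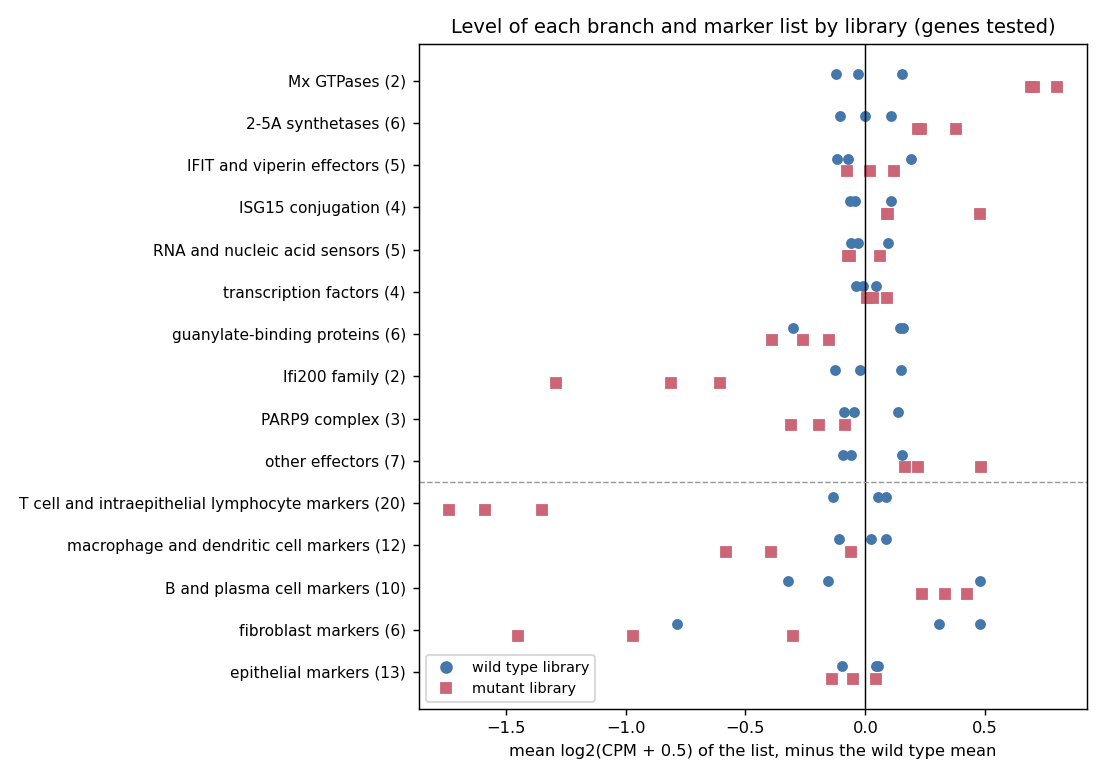
Mean log2(CPM + 0.5) of the tested genes of each branch and marker list, as the difference from the wild type mean (x axis, log2 units), for each library (points). Mutant libraries lie at 0.69 to 0.80 for the Mx GTPases and -1.74 to -1.35 for the T cell and intraepithelial lymphocyte markers. For the guanylate-binding proteins, mutant libraries lie at -0.39 to -0.15 and wild type replicate 3 at -0.30, so the groups overlap.

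The authors' deposited table gives its own test of the same 6 libraries. In the authors' deposited table, 2 members were higher and 2 lower at an adjusted p under 0.05, beside 4.71% of its 14338 genes in either direction. The higher members there were Mx1, with a log2 fold change of 1.15 ± 0.13 in the authors' deposited table, and Oas2, with 1.01 ± 0.16. The lower members there were Ifi208, at -1.99 ± 0.45, and Gbp2, at -1.03 ± 0.20, in the authors' deposited table. Of these 4, Gbp2 alone did not pass the edgeR test.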

How the data were processed

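Raw read counts per gene of 6 libraries were taken from the deposited count table. Per the submitters' processing notes the authors used Trimmomatic 0.39, STAR, HTSeq and DESeq2 with GRCm38. Per the labels' protocols the kit was stranded and removed ribosomal RNA. The annotation release and strand setting were not given in the sources used here. The 5 summary lines were left out: reads in no feature were 18.5% to 22.1% of alignments per wild type library and 23.6% to 27.6% per mutant library, and the rest were ambiguous or not unique. A second deposited table is the authors' own comparison: normalized signal per library (100% of values equal the count times 1 factor, relative tolerance 1e-06), log2 fold changes, a test score and p-values.

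The test was that of edgeR 4.0.16, run in R 4.3.3 (filterByExpr, TMM, robust dispersions, quasi-likelihood F test on genotype, Benjamini-Hochberg over 16757 genes, threshold 0.05). Standard errors are the log2 fold change over the square root of F. Alternatives were DESeq2 1.42.0, limma 3.58.1 voom, other scalings, filters and dispersions, a replicate block, and each library left out. The fit was run on simulated counts, with 100 genes changed at each of 2 fold sizes. It called 85% of the 2-fold and 99% of the 4-fold changes, with 21 false calls among 16389 genes. The changed genes were drawn above a read level, so the recovery of low genes was not tested. A count of 0 allows 3 reads, which is 0.107 to 0.120 CPM of gene reads for wild type libraries and 0.230 to 0.425 CPM for the mutants. Intervals cover counting error only. Positions and windows came from GENCODE M21 (GRCm38).

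The 44 members and the pathway and marker lists were chosen with earlier results of these data known. Named were members past the threshold in edgeR or DESeq2, every Mx, oligoadenylate synthetase, guanylate-binding and Ifi200 member, up to 3 others per branch, and of other lists the genes past the threshold or else up to 2 (3 for cell types) with the smallest p. Of the signalling list, 1 gene is not reported here. Genes named otherwise are given by their log2 fold change or as marked.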

Additional observations from a re-analysis of the deposited data

How the results depend on the processing

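Mx1 and Oas2 passed as higher in every setting run. Without a filter on low counts 1493 genes passed against 430, with 6 members higher and 5 lower, and the DESeq2 Wald test gave 655 genes with 2 members lower. Members lower numbered 2 without robust dispersions and 0 with limma voom. Leaving out single libraries gave 174 to 674 genes (174 without mutant replicate 2, 180 without mutant replicate 3, 674 without wild type replicate 3), 2 to 3 members higher and 0 to 2 lower. The median of all genes moved by under 0.1 on the log2 scale in all of these settings.

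With the replicate number as a block, 360 genes passed (129 higher, 231 lower), with the same 3 members called. Same-numbered libraries correlated at -0.13, 0.13 and -0.02 in their deviations, within the -0.16 to 0.19 of differently numbered ones. These values showed no pairing by number, but with 3 libraries per group they cannot exclude it.

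Over all settings 14 of the 44 members turned sign at least once, 31 times in all, and none of the 14 had passed. Oasl1 turned to -0.0037 with upper quartile factors and -0.0058 without a filter. Rtp4 (0.0060) turned with upper quartile factors, to -0.0148 without a filter and to -0.0273 with limma voom, and Ddx58, at almost 0, with DESeq2 size factors, mitochondrial genes left out and the replicate block. Leaving out single libraries turned all 14, and gave log2 fold changes of -0.029 to 0.045 for Oasl1, -0.068 to 0.029 for Parp14 and -0.69 to 0.092 for Ifi204. The range was -0.20 to 0.25 for Gbp6, -0.077 to 0.35 for Isg15 and -0.0045 to 0.21 for Oasl2. For Gbp3 it was -0.37 to 0.0077 and for Oas3 -0.13 to 0.036. For Ifit1 it was -0.044 to 0.14, for Cmpk2 -0.048 to 0.18, for Herc6 -0.069 to 0.16, for Rtp4 -0.15 to 0.091, for Samhd1 -0.00056 to 0.10 and for Ddx58 -0.085 to 0.098. The median over the members turned to -0.021 without mutant replicate 3. The cause was not tested in any of these. The lower depth of the mutant libraries limits the precision of low genes such as Ifi208 and Ifng.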
